A study of Mus musculus with 6 samples.

Results

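The collagen and laminin genes of mouse choroid plexus (ChP) were compared between adult animals and embryos. The members were all gene names in the deposited expression table made of Col, a number, a and a number, or of Lam, a letter from a to c and a number. This gave 55 of 24354 names, 44 of them collagens and 11 laminins. Tissue was taken from 3 adult samples, labelled with an age of 60 days, and 3 samples of embryonic day 16.5 (E16.5), and every animal carried FoxJ1:cre and the bacTRAP transgene EGFP:L10a. In translating ribosome affinity purification (TRAP), mRNA is pulled down with ribosomes that carry a tagged subunit, here EGFP on the ribosomal protein L10a in cells with Cre recombinase from the Foxj1 promoter, which is active in ciliated cells. The samples were pools of animals by the methods and single mice by the series description, so that p-values measure the spread between these samples only. Expression is given as FPKM (fragments counted per length of transcript and per total of mapped reads), which is per length and so allows genes to be set side by side.

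Collagens and laminins build the extracellular matrix on which epithelia stand. Laminins, trimers of an alpha, a beta and a gamma chain, form a sheet on the cell surface, and type IV collagen forms a second network that nidogens and perlecan join to it in the basement membrane. Fibrillar collagens instead make the fibers of the stroma under that sheet, with fibril-associated collagens on their surface. In ChP a single layer of epithelium rests on a basement membrane, and fenestrated capillaries and stromal cells lie on its other side.

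Depth and listed zeros differed between the ages. By the step that a single read leaves among low values, the E16.5 libraries were 4.03 to 5.09 times as deep as adult replicate 3, while adult replicates 1 and 2 exceeded it 1.26-fold and 2.86-fold. Of the 11601 genes with a mean above 1 FPKM over the 6 samples, 10.3% to 36.4% were listed at 0 in an adult sample and 3.68% to 4.02% in an E16.5 sample. Of 13 markers of ChP epithelium, all 13 passed that filter. By the test below, 5 were higher in adult (Ttr, Kl, Kcnj13, Prlr and Enpp2) and 3 at E16.5 (Otx2, Krt18 and Krt8). Clic6, in neither group, lay between 559.5 and 769 FPKM in the adult samples and between 740.4 and 810.0 FPKM at E16.5. Ttr, the transthyretin that ChP secretes, had 20922, 31302 and 29741 FPKM in adult but stood at 0 in each of the E16.5 samples, so that an exact 0 in this table can be a failed estimate. For members listed at 0 in some samples, each sample's value is therefore given and no mean. Differences were tested with limma on log2(FPKM + 1) over the 11601 genes, adult minus E16.5, and a gene is called here where the adjusted p is under 0.05. The median log2 change of all genes tested was -0.86, and it moved to -0.58 with median-ratio scaling, -1.57 with equal sums per sample, -1.14 with equal sums that leave out the abundant Mir6236, and 0.01 with quantile normalization. Among genes above 0 in every sample it was -0.38. Changes are therefore also given relative to the median of -0.86. Relative to -0.38, changes toward adult would be smaller and changes toward E16.5 larger. On the log2(FPKM + 1) scale, the change of a gene with low FPKM is understated.

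The promoters of 3 members on which the results turn are shown, as 300-base windows of RefSeq genes on GRCm38.p6, from 250 bases before the start site to 50 bases from it on. The first is that of Col4a2, which is shared with Col4a1: these genes point away from each other, and their annotated transcripts overlap by 22 bases at their starts (Col4a1 at 11312826 on the minus strand of chromosome 8, Col4a2 at 11312805 on the plus strand). Capitals mark the 78 bases that also lie in the Col4a1 window.
Col4a2, chr8:11312555-11312854, plus strand: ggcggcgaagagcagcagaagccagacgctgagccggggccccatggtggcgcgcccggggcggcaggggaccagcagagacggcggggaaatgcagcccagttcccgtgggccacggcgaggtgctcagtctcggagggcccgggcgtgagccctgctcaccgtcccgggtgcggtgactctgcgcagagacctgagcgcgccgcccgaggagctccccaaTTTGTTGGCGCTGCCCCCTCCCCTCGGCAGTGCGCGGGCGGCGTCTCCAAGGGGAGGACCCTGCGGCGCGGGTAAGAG
The other 2 are those of the members called higher in adult. Here capitals mark each match to the TATA box letters TATAAA, the CCAAT box or the GC box letters GGGCGG on either strand. The Col8a1 window holds 4 matches to GGGCGG, and the Col17a1 window holds 2 to TATAAA and 1 to CCAAT.
Col8a1, chr16:57754688-57754987, minus strand: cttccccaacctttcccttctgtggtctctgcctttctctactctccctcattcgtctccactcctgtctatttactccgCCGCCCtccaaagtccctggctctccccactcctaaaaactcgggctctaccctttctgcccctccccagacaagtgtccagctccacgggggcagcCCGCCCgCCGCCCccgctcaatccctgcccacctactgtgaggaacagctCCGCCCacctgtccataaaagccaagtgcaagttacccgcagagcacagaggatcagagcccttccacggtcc
Col17a1, chr19:47691993-47692292, minus strand: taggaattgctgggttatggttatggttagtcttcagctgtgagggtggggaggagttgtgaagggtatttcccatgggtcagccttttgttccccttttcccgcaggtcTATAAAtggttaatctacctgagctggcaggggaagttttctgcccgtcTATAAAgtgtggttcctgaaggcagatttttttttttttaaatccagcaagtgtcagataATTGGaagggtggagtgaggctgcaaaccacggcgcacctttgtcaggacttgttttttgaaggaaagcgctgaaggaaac
Windows were found for 40 members, 44 windows in all. GGGCGG was in 26 of these (59.1%) against 35.7% of 32851 windows of all genes, CCAAT in 14 (31.8% against 37.4%) and TATAAA in 5 (11.4% against 13.6%). GGGCGG holds only G and C, and GC content was not matched in this comparison. The median GC content of all windows was 52.7%, and the Col4a2, Col8a1 and Col17a1 windows had 73.7%, 60.3% and 46.3%. The motif matches are a description and not binding sites. The other type IV collagen genes are also arranged head to head: the start sites of Col4a4 and Col4a3 on chromosome 1 lie 71 bases apart, and those of Col4a6 and Col4a5 on chromosome X 1308 bases apart.

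Of the 55 members, 31 were tested and 7 were called. In adult, 2 were higher (Col8a1 and Col17a1), where 2.12% of all genes tested were called higher in adult. At E16.5, 5 were higher (Col4a2, Col4a6, Col2a1, Col12a1 and Col9a2), where 8.83% of all genes were. In 2 members the lowest adult value exceeded the highest E16.5 value, against 7.39% of all genes, and in 12 the order was the opposite, against 31.0%. The median log2 change of the 31 was -0.90, beside -0.86 for all genes. By their own means, 9 of the 31 passed the filter only through E16.5 and 2 only through adult, so that a difference between the ages was built into these, and they hold 5 of the 7 calls. These 5 are Col4a6, Col2a1, Col12a1, Col9a2 and Col17a1. Among the 20 with a mean of at least 1 FPKM at both ages, Col8a1 and Col4a2 were called.

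Of the 24 members that were not tested, 7 were listed at 0 in all 6 samples: Col6a4, Col6a5, Col7a1, Col13a1, Col19a1, Col28a1 and Lamb3. The other 17 had values above 0 in some samples, the highest being 4.27 FPKM for Col6a3 in E16.5 replicate 1. Only 14 members were above 0 in every sample, and 10 of these were basement membrane members. The adult libraries had 20, 35 and 22 members above 0 and the E16.5 libraries 38, 35 and 42, in the order of the replicates. The summed FPKM of all members was 569, 609.9 and 483 in adult and 653, 591 and 707 at E16.5.

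**Figure D1:**
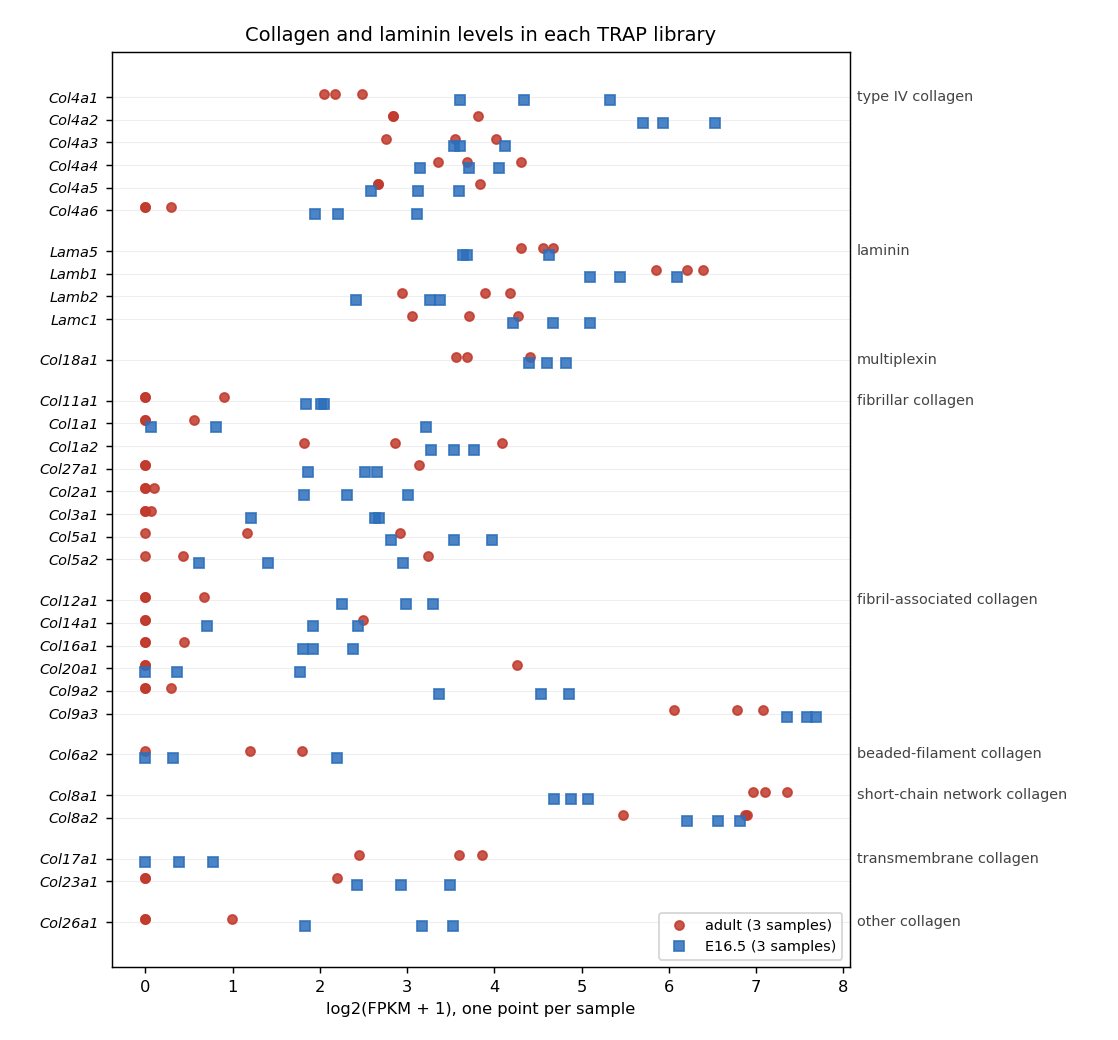
Level of each of the 31 tested members as log2(FPKM + 1), with a point for each sample, adult in red and E16.5 in blue, grouped by structural class. Col8a1 and Col17a1 have every adult point to the right of every E16.5 point, while 12 members, Col4a1, Col4a2 and Col9a2 among them, have every adult point to the left.

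Type IV collagen held the largest log2 change among the basement membrane members. Col4a2 (chromosome 8, 11312805 to 11449287), a chain of the type IV network found in nearly all basement membranes, had 13.0, 6.14 and 6.14 FPKM in adult against 59.9, 50.9 and 91.3 FPKM at E16.5. All E16.5 samples lay above all adult samples, and the adult mean of 8.42 ± 3.96 FPKM was 7.999-fold lower than the E16.5 mean of 67.4 ± 21.2 FPKM (SD, n = 3 each). The log2 change was -2.89 (SE, the standard error of the fit, 0.46, limma adjusted p = 0.0130), or -2.04 relative to the median of all genes, and it stayed between -1.98 and -2.47 relative to that median under the other scalings. The call of Col4a2 was lost without E16.5 replicate 1 (adjusted p = 0.0505) and without E16.5 replicate 3 (adjusted p = 0.0550), at log2 changes of -2.95 and -2.65.

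Col4a1, its partner chain and head-to-head neighbour, had 4.58, 3.15 and 3.51 FPKM in adult and 19.3, 11.2 and 39.0 FPKM at E16.5. The ages did not overlap here either, but the 3 E16.5 samples spread widely, and the log2 change of -2.19 (SE 0.61) did not pass the test (adjusted p = 0.0591). It passed after scaling to equal sums (adjusted p = 0.01999) and among genes above 0 in every sample (adjusted p = 0.0477). Col4a6 was listed at 0, 0.227 and 0 FPKM in adult and had 3.63, 2.86 and 7.63 FPKM at E16.5. It was called higher at E16.5 (log2 change -2.33, adjusted p = 0.0494), near the threshold and in 6 of 17 alternatives. Col4a6 passed the filter only through E16.5, so that its direction was built in. Without E16.5 replicate 1, 2 or 3 or adult replicate 1 or 3, the adjusted p of Col4a6 was 0.0660, 0.0596, 0.0563, 0.102 and 0.0661. In quantile-normalized values its log2 change was -0.76 (adjusted p = 0.431).

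The chains that replace Col4a1 and Col4a2 in the basement membranes of kidney glomerulus and inner ear had like levels at both ages. Col4a3 had 5.77, 15.2 and 10.7 FPKM in adult and 11.2, 10.6 and 16.4 FPKM at E16.5. Col4a4 had 11.9, 18.7 and 9.18 FPKM in adult and 7.84, 12.1 and 15.5 FPKM at E16.5. Col4a5 had 5.34, 5.32 and 13.3 FPKM in adult and 11.1, 7.75 and 5.02 FPKM at E16.5. The ages overlapped in all 3, and their log2 changes of -0.31, 0.15 and -0.05 had standard errors of 0.52 to 0.62, so that differences of that size were not detectable. Relative to the median of all genes these changes were 0.54, 1.002 and 0.80.

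Within each sample, Col4a1 and Col4a2 made up 43.3%, 19.0% and 22.5% of the type IV FPKM in adult and 70.1%, 65.1% and 74.5% at E16.5. Such shares do not depend on the scaling between samples. The most abundant chain was Col4a2 in all 3 E16.5 samples, and in adult it was Col4a2, Col4a4 and Col4a5 in replicates 1, 2 and 3, so that the order of the adult chains was not stable. Kdr, an endothelial receptor, had 2.04, 7.75 and 0.435 FPKM in adult and 15.95, 12.3 and 36.7 FPKM at E16.5 (log2 change -2.60, limma adjusted p = 0.0809), with its highest value in the sample where Col4a1 and Col4a2 were also highest. The other endothelial markers tested, Egfl7, Tie1 and Cldn5, overlapped between the ages, at log2 changes of -0.013, 1.002 and 1.13, and the median of the 4 was 0.49. The summed FPKM of 13 endothelial markers overlapped between the ages, with 0.489 to 28.4 in adult and 17.7 to 46.2 at E16.5. Of these 13, 0 of 4 tested were called (1 at an unadjusted p under 0.05), Esam was listed at 0 in all samples and Pecam1 in 5 of 6. The part of these cells in the type IV values was not tested, and in such bulk samples fewer cells of a type and less RNA per cell cannot be told apart.

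Of the 4 laminins tested, limma called 0, and without adjustment 0 passed 0.05, while 10.9% of all genes were called. Lamb1 (chromosome 12, 31265234 to 31329644), the beta chain of most embryonic and many adult laminins, was the most abundant laminin in every sample. It had 56.8, 73.1 and 82.9 FPKM in adult and 42.3, 33.2 and 67.0 FPKM at E16.5, and the ages overlapped. Its means were 70.9 ± 13.2 and 47.5 ± 17.5 FPKM (SD, n = 3 each), a log2 change of 0.61 (SE 0.36, limma adjusted p = 0.282). Lama5, the alpha chain of most adult epithelial basement membranes, had 22.5, 24.6 and 18.7 FPKM in adult and 11.5, 11.8 and 23.8 FPKM at E16.5. Only E16.5 replicate 3 reached the adult range, and the log2 change was 0.53 (adjusted p = 0.444). Lamb2, the beta chain of mature vessels and synapses, had 13.9, 17.1 and 6.68 FPKM in adult and 4.35, 8.597 and 9.43 FPKM at E16.5 (log2 change 0.65, adjusted p = 0.470). Lamc1, the gamma chain shared by most laminins, had 12.1, 18.2 and 7.35 FPKM in adult and 24.4, 17.6 and 33.2 FPKM at E16.5. This was a log2 change of -0.98 (adjusted p = 0.217), close to the median of all genes.

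The signs of these laminin values depended on the scaling. After scaling to equal sums, Lama5, Lamb1 and Lamb2 turned to -0.26, -0.20 and -0.09, although relative to the median of all genes they stayed between 1.003 and 1.74 higher in all scalings. The median of genes above 0 in every sample, which include these 3, was -0.38 as deposited, and they lay less far above it. The same 3 chains dominated at both ages: Lama5 was 89.5% to 99.8% of the alpha chain FPKM in adult and 89.4% to 100% at E16.5, Lamb1 was 80.4% to 92.5% and 79.4% to 90.7% of the beta chains, and Lamc1 was 92.5% to 100% and 99.1% to 99.6% of the gamma chains. The other alpha chains were sparse. Lama2, the chain of muscle and brain vessels, had 2.33, 2.41 and 0.0343 FPKM in adult and 0.276, 0 and 0.933 FPKM at E16.5, just under the filter. Lama1, Lama3, Lama4 and Lamc3 did not exceed 1.13 FPKM in any sample.

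The balance between type IV collagen and laminin FPKM differed between the ages by far more than its spread between samples. Type IV collagen was 27.1%, 26.5% and 27.0% of the summed FPKM of type IV collagen and laminin in adult and 57.5%, 57.3% and 56.2% at E16.5. The means were 26.9% ± 0.363 and 57.0% ± 0.726 (SD, n = 3 each). In FPKM, the laminins summed to 109, 135 and 116 in adult and 83.3, 71.3 and 136 at E16.5, which overlap. The type IV chains summed to 40.6, 48.7 and 42.8 in adult and 113, 95.5 and 175 at E16.5, which do not. As given above, the ages overlapped in Col4a3, Col4a4 and Col4a5, so that the type IV difference lay in Col4a1, Col4a2 and Col4a6. These shares were chosen with the values in view and are given as a description.

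**Figure D2:**
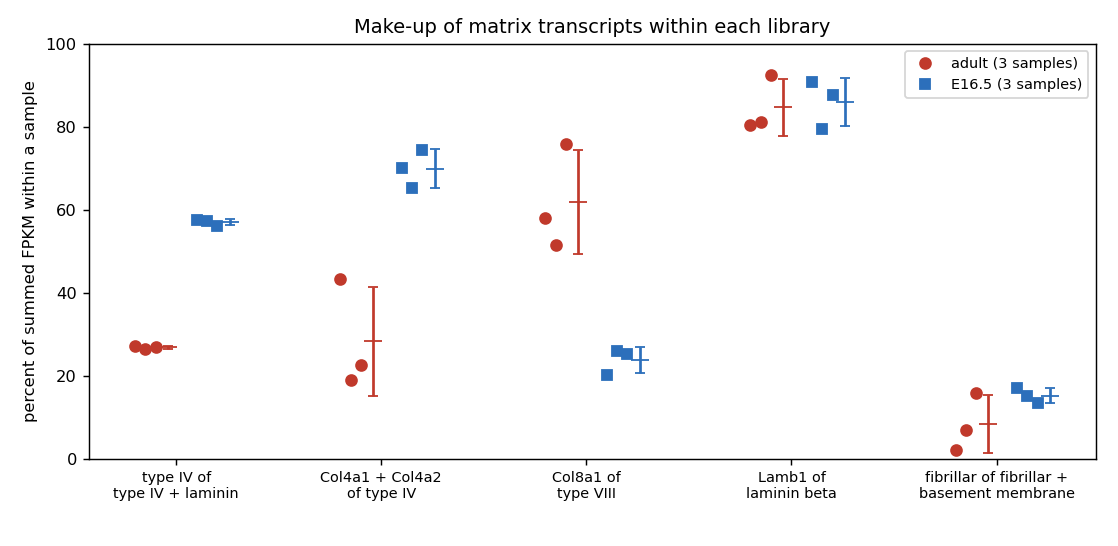
Share of the summed FPKM of a chain or class within each sample, in percent, with adult samples as red circles and E16.5 samples as blue squares. Bars give the mean and SD of 3 samples. Type IV collagen lies at 26.5% to 27.1% of type IV plus laminin in adult and at 56.2% to 57.5% at E16.5, while the Lamb1 share and the fibrillar share overlap between the ages.

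The multiplexins are basement membrane collagens whose cores carry glycosaminoglycan chains. Col18a1, the precursor of endostatin, had 20.3, 10.8 and 11.9 FPKM in adult and 27.2, 23.3 and 20.01 FPKM at E16.5, with adult replicate 1 inside the E16.5 range. Its log2 change was -0.72 (limma adjusted p = 0.293), and it passed in 1 of 18 alternatives, that of equal sums (adjusted p = 0.0430). Col15a1 was above 0 in adult replicate 2 (1.59 FPKM) and E16.5 replicate 3 (0.649 FPKM) and was not tested.

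Fibrillar collagens were low in these libraries at both ages. Of 11, 8 were tested and 1, Col2a1, was called. Col2a1, the main collagen of cartilage fibrils, was listed at 0, 0.0715 and 0 FPKM in adult and had 2.54, 3.97 and 7.07 FPKM at E16.5. The log2 change was -2.35 (SE 0.59, limma adjusted p = 0.0463), and the call was kept in 8 of 17 alternatives. Col2a1 passed the filter only through E16.5, so that its direction was built in. The adjusted p of Col2a1 was 0.0698 and 0.0533 without E16.5 replicates 2 and 3, and 0.0952 and 0.0610 without adult replicates 1 and 3. Col11a1, which forms fibrils with Col2a1, was at 0, 0.860 and 0 FPKM in adult and at 3.04, 2.58 and 3.12 FPKM at E16.5. It did not overlap between the ages but did not pass the test (adjusted p = 0.1001), other than without adult replicate 2 (adjusted p = 0.0436) and with equal sums (adjusted p = 0.0432). Of 10 cartilage markers in the table, Acan, Matn1, Matn3, Chad and Ucma were listed at 0 in all 6 samples. Sox9, a transcription factor of cartilage and of many epithelia, had 64.4 to 79.1 FPKM in adult and 128 to 147 FPKM at E16.5 (log2 change -0.89, adjusted p = 0.0641). The other cartilage marker tested, the matrix protein Matn4, went the opposite way, with 0.625, 9.72 and 7.04 FPKM in adult and 0 in every E16.5 sample (log2 change 2.38, adjusted p = 0.0987).

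The chains of type I and type III collagen, the main fibers of loose connective tissue, differed in how well they were detected. Col1a2 had 2.53, 6.27 and 15.99 FPKM in adult and 12.6, 8.69 and 10.6 FPKM at E16.5, overlapping, with a log2 change of -0.60 (limma adjusted p = 0.571). Its partner Col1a1 was at 0, 0.476 and 0 FPKM in adult and at 8.26, 0.0421 and 0.754 FPKM at E16.5, so that a single E16.5 sample held nearly all of its signal (adjusted p = 0.379). That sample, E16.5 replicate 1, also had the highest summed FPKM of neuron and of red blood cell markers, 157 and 388, against 42.7 to 49.6 and 56.7 to 116 in the other E16.5 samples, and their part in the Col1a1 value was not tested. Col3a1 was at 0, 0.0420 and 0 FPKM in adult and at 5.18, 1.31 and 5.37 FPKM at E16.5. Its log2 change of -2.15 had an adjusted p of 0.0680, and it passed in 4 of 17 alternatives. These were without E16.5 replicate 2 (adjusted p = 0.0490), with pseudocounts of 0.1 and 0.01 (0.0407 and 0.0405) and with equal sums (0.0326).

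Type V collagen, which sets the diameter of type I fibrils, gave mixed values. Col5a1 had 1.24, 6.56 and 0 FPKM in adult and 6.03, 10.6 and 14.8 FPKM at E16.5, and adult replicate 2 lay inside the E16.5 range (limma adjusted p = 0.155, and 0.0494 without adult replicate 2). Col5a2 was at 0, 0.351 and 8.45 FPKM in adult and at 1.65, 0.532 and 6.75 FPKM at E16.5, where replicate 3 was highest at each age (adjusted p = 0.798). Col27a1 was above 0 in a single adult sample (7.77 FPKM in replicate 3) and had 5.29, 4.73 and 2.63 FPKM at E16.5 (adjusted p = 0.386). Col5a3, Col11a2 and Col24a1 were at 0 in every adult sample, did not exceed 0.752 FPKM at E16.5 and were not tested.

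Set side by side, 2 of 11 basement membrane members tested were higher at E16.5 and 0 in adult, and 1 of 8 fibrillar members was higher at E16.5 and 0 in adult. Over all genes tested, 8.83% were called higher at E16.5 and 2.12% in adult, so that these counts lie near the background. The median log2 change was -0.31 over the basement membrane members and -1.48 over the fibrillar members, beside -0.86 over all genes. Within the basement membrane class, the medians of type IV collagen and of laminin were -1.25 and 0.57. However, 4 of the 8 fibrillar members (Col11a1, Col1a1, Col2a1 and Col3a1) passed the filter only through E16.5, against 1 of the 11 basement membrane members (Col4a6), so that a lower fibrillar median was built in by the filter. The difference of 1.17 between the 2 medians is therefore a description. It was 0.42 among genes above 0 in every sample, where 1 fibrillar member is left, and 4.63 at a pseudocount of 0.01. The fibrillar share of fibrillar plus basement membrane FPKM was 2.18%, 6.93% and 15.9% in adult and 17.0%, 15.1% and 13.3% at E16.5, so that adult replicate 3 lay inside the E16.5 range. The summed fibrillar FPKM was 3.78, 14.6 and 32.2 in adult and 45.6, 33.9 and 51.0 at E16.5. Of 18 mesenchyme and fibroblast markers, 7 were tested and 2 were called, both higher at E16.5: Pdgfra, a receptor of fibroblasts and other stromal cells, had 2.93, 2.20 and 5.91 FPKM in adult and 18.4, 34.9 and 29.7 FPKM at E16.5, and Vim, an intermediate filament, had 21.6, 0.553 and 0 FPKM in adult and 141, 144 and 199 FPKM at E16.5. Without E16.5 replicate 1, 2 or 3, Pdgfra had an adjusted p of 0.0791, 0.130 and 0.116 and Vim of 0.0978, 0.0981 and 0.0970, and Pdgfra was also lost without adult replicate 1 (adjusted p = 0.0622) and Vim without adult replicate 2 (adjusted p = 0.0528). Quantile normalization also ended the call of Pdgfra (limma adjusted p = 0.0767). The 7 did not all go the same way. In 3 every adult sample lay below every E16.5 sample, and in 1 every adult sample lay above. That 1 passed an unadjusted limma p of 0.05 in favour of adult but was not called. The median log2 change of the 7 was -1.01. Dpt and Mfap5 were listed at 0 in all 6 samples. The summed marker FPKM, mostly that of Igf2, was 733 to 972 in adult and 713 to 804 at E16.5, and the part of these cells in the fibrillar values was not tested.

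Among the fibril-associated collagens, Col9a2 (chromosome 4, 121039385 to 121055322) had the largest log2 change of all members as deposited, while relative to the median of all genes that of Col17a1 was larger (3.77). Col9a2, a chain of the type IX collagen that coats cartilage fibrils and is also found in the vitreous of the eye, was listed at 0, 0.222 and 0 FPKM in adult and had 9.33, 22.1 and 27.9 FPKM at E16.5. The log2 change was -4.15 (SE 0.67, limma adjusted p = 0.0139), or -3.30 relative to the median of all genes. It was called in 15 of 17 alternatives, and not without E16.5 replicate 2 (adjusted p = 0.0521). However, Col9a2 passed the filter only through E16.5, so that its direction was built in. Col9a3, the other abundant chain of the same trimer, was the most abundant collagen in the E16.5 libraries, with 205, 190.2 and 163 FPKM, and had 109, 134 and 65.6 FPKM in adult. The ages did not overlap, but the log2 change of -0.90 (adjusted p = 0.111) was close to the median of all genes. Col9a1, the chain that completes the type IX trimer, was above 0 in a single sample (0.141 FPKM in E16.5 replicate 3), and Col9a3 made up at least 99.8% of type IX FPKM in adult and 95.6%, 89.6% and 85.3% at E16.5.

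Col12a1, a long collagen on the fibrils of tendon and dense connective tissue, was at 0, 0.597 and 0 FPKM in adult and at 6.94, 3.76 and 8.83 FPKM at E16.5. It was called higher at E16.5 (log2 change -2.62, limma adjusted p = 0.0410) and in 5 of 17 alternatives. Col12a1 also passed the filter only through E16.5, so that its direction was built in. Without E16.5 replicates 1, 2 and 3 the adjusted p of Col12a1 was 0.0765, 0.0569 and 0.0746, and without adult replicates 1 and 3 it was 0.0899 and 0.0534. Col16a1 showed the same order, with 0, 0.360 and 0 FPKM in adult and 2.79, 2.50 and 4.21 FPKM at E16.5, but did not pass (adjusted p = 0.0668). It passed in 4 of 17 alternatives: without adult replicate 2 (adjusted p = 0.0468), without the filter (0.0392), without the intensity trend (0.0421) and with equal sums (0.0318). Col14a1 and Col20a1 overlapped between the ages, and the highest Col20a1 value, 18.2 FPKM, was that of adult replicate 3 alone.

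Type VIII collagen, a short-chain collagen that makes the hexagonal lattice of Descemet's membrane in the cornea, had the highest FPKM of the collagen types in the adult TRAP libraries. Col8a1 (chromosome 16, 57624258 to 57754737) had 163, 124 and 136 FPKM in adult and 28.3, 32.6 and 24.7 FPKM at E16.5. The adult samples lay far above those of E16.5, at means of 141 ± 19.8 and 28.5 ± 3.93 FPKM (SD, n = 3 each), a 4.93-fold difference. The log2 change was 2.26 (SE 0.29, limma adjusted p = 0.00705). Col8a1 was the only called member whose call was kept in every alternative, all 18 of them, with adjusted p from 0.00257 to 0.0490. Relative to the median of all genes its change was 3.12, and between 2.74 and 3.26 under the other scalings.

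Its partner chain Col8a2 did not follow. It had 118, 116 and 43.5 FPKM in adult and 111, 93.2 and 73.1 FPKM at E16.5, with means of 92.5 ± 42.4 and 92.5 ± 19.1 FPKM (SD, n = 3 each). Adult replicate 3 was the lowest of the 6, and the log2 change was -0.11 (SE 0.44, limma adjusted p = 0.874). Col8a1 was thus 58.0%, 51.6% and 75.7% of type VIII FPKM in adult and 20.3%, 25.9% and 25.3% at E16.5. The third member of the short-chain class, Col10a1 of hypertrophic cartilage, was above 0 in adult replicate 1 alone (1.92 FPKM). Types VIII and IX together made up 84.6%, 78.9% and 66.6% of the FPKM of all collagens in adult and 62.1%, 65.1% and 50.6% at E16.5.

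Col17a1 (chromosome 19, 47646344 to 47692094), a transmembrane collagen that anchors epithelial cells to the basement membrane at hemidesmosomes, had 4.44, 13.5 and 11.1 FPKM in adult and was listed at 0, 0.302 and 0.713 FPKM at E16.5. The ages did not overlap, and Col17a1 was called higher in adult (log2 change 2.91, SE 0.68, limma adjusted p = 0.0378). Col17a1 passed the filter only through adult, so that its direction was built in. The call held in 9 of 17 alternatives. It was lost on leaving out E16.5 replicate 1, 2 or 3 (adjusted p = 0.140, 0.126 and 0.0959), and it was kept under each of the other scalings. Col23a1, another transmembrane collagen, was above 0 in adult replicate 3 alone (3.58 FPKM) and had 10.3, 6.61 and 4.39 FPKM at E16.5. It did not pass (adjusted p = 0.116), other than without adult replicate 3 (adjusted p = 0.0341) and with equal sums (adjusted p = 0.0342). Col25a1, found on neurons, did not exceed 0.511 FPKM.

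Type VI collagen, which forms beaded filaments near cells, was low in these libraries and did not exceed 4.27 FPKM in any sample. That value was of Col6a3, which had 4.27, 0.1003 and 0.784 FPKM at E16.5, stood at 0 in every adult sample and was not tested. Col6a2 was tested, with 0, 2.46 and 1.30 FPKM in adult and 0.248, 0 and 3.58 FPKM at E16.5 (limma adjusted p = 0.905). Col6a1 and Col6a6 did not exceed 1.32 FPKM in any sample. Col26a1 had 0, 0.991 and 0 FPKM in adult and 2.55, 10.5 and 8.02 FPKM at E16.5 (adjusted p = 0.0643) and passed after scaling to equal sums alone (adjusted p = 0.0268).

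**Figure D3:**
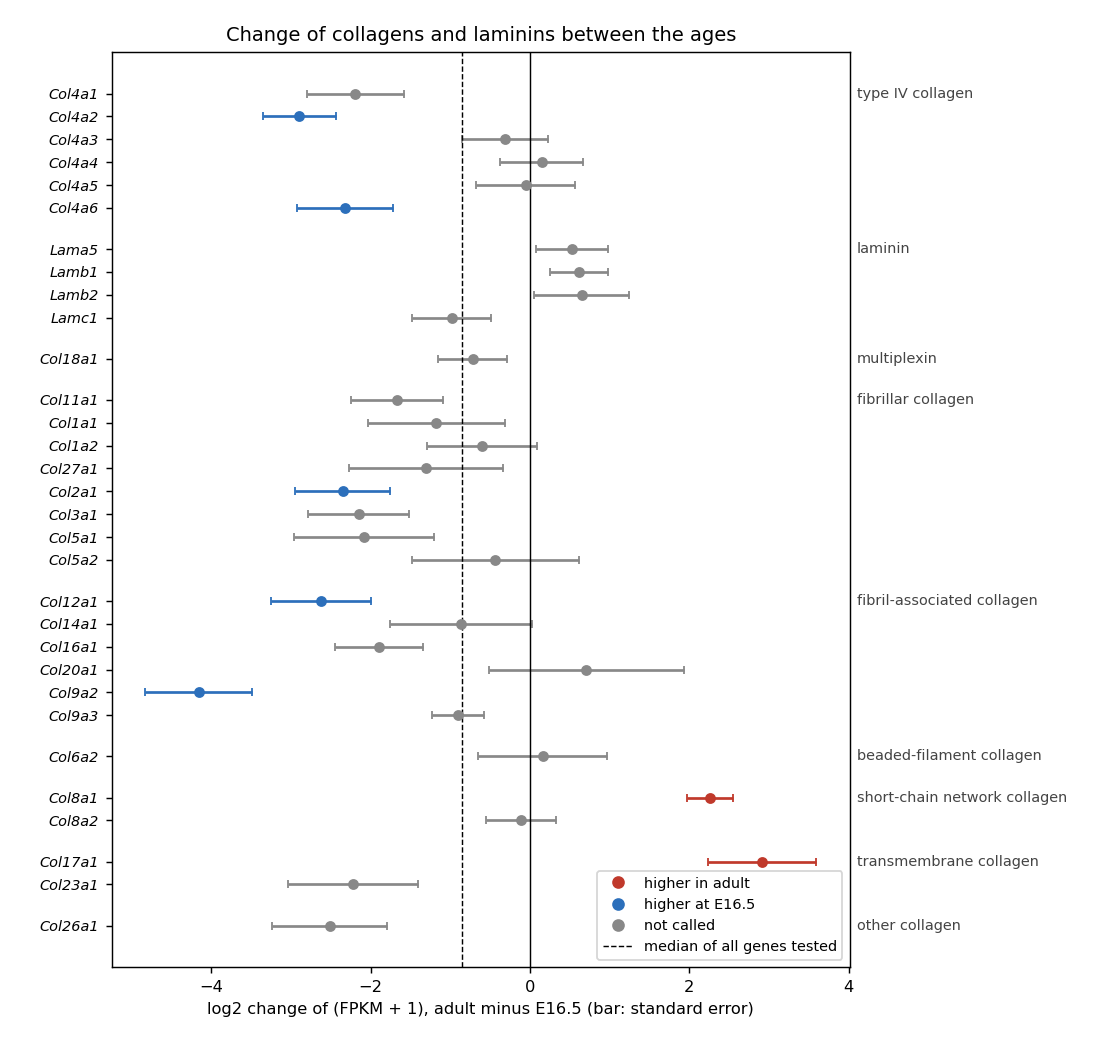
Log2 change of FPKM + 1 between the ages, adult minus E16.5, for the 31 tested members, with the standard error of the limma fit as the bar and the median of all genes tested (-0.86) as a dashed line. Red marks the 2 members called higher in adult, blue the 5 called higher at E16.5 and gray those not called.

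Genes that act on these proteins were followed in 6 lists, whose counts stand beside 2.12% of all genes called higher in adult and 8.83% at E16.5. Of 14 other basement membrane proteins tested, 2 were called, both higher at E16.5. Npnt, nephronectin, a ligand of integrins in embryonic basement membranes, had 8.39, 7.22 and 0.0789 FPKM in adult and 70.6, 73.4 and 71.0 FPKM at E16.5 (log2 change -4.06, limma adjusted p = 0.0273). Frem2, of the Fraser complex that ties embryonic epithelium to its stroma, had 2.98, 3.38 and 6.85 FPKM in adult and 25.2, 19.1 and 34.9 FPKM at E16.5 (log2 change -2.37, adjusted p = 0.0351). Both calls were lost whichever E16.5 replicate was left out, at adjusted p of 0.101 to 0.113 for Npnt and 0.0960 to 0.142 for Frem2, and Frem2 also without adult replicate 1 (adjusted p = 0.0697). With median-ratio scaling and quantile normalization Frem2 was not called either (adjusted p = 0.0592 and 0.0908). The median log2 change of the list was -0.50.

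The receptors included 1 gene called in each direction among 10 tested. Itga3, an alpha subunit of a laminin-binding integrin, had 68.5, 61.9 and 107 FPKM in adult and 13.2, 23.7 and 24.2 FPKM at E16.5, 1.91 higher on the log2 scale (limma adjusted p = 0.0291). Itga6, the alpha subunit of another laminin-binding integrin, had 0.224, 0.456 and 0 FPKM in adult and 5.13, 8.41 and 7.69 FPKM at E16.5 (log2 change -2.71, adjusted p = 0.0326). The ages did not overlap in either gene, but Itga6 passed the filter only through E16.5, so that its direction was built in. The median log2 change of the 10 was 0.37. The adjusted p of Itga3 was 0.0632 to 0.0707 with an E16.5 replicate left out and 0.0592 without adult replicate 1, and that of Itga6 was 0.0639, 0.0626 and 0.0699 without E16.5 replicates 2 and 3 and adult replicate 1. With equal sums that of Itga3 was 0.0971, and with quantile normalization that of Itga6 was 0.308.

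Of 17 enzymes and chaperones of collagen synthesis, 3 were called, all higher at E16.5. Serpinh1, the collagen chaperone Hsp47, had 61.3, 54.2 and 89.3 FPKM in adult and 286, 251 and 181 FPKM at E16.5 (log2 change -1.80, limma adjusted p = 0.0172). Ppib, the prolyl isomerase cyclophilin B, had 124, 129.9 and 207 FPKM in adult and 433, 445 and 286 FPKM at E16.5 (log2 change -1.34, adjusted p = 0.0369). P4ha3, a catalytic subunit of prolyl hydroxylase, was listed at 0 in every adult sample and had 15.8, 8.14 and 5.72 FPKM at E16.5 (adjusted p = 0.0234). It passed the filter only through E16.5, so that its direction was built in, and an exact 0 can be a failed estimate. P3h2, a prolyl hydroxylase with the largest value in favour of adult, had 36.7, 42.5 and 9.74 FPKM in adult and 10.3, 3.83 and 7.46 FPKM at E16.5 and was not called (log2 change 1.75, adjusted p = 0.131). The median log2 change of the 17 was -0.46. Relative to the median of all genes, Serpinh1 and Ppib were at -0.95 and -0.48. Leaving out E16.5 replicates 1 or 2 ended the call of Serpinh1 (adjusted p = 0.0599 and 0.0659), E16.5 replicate 2 or adult replicate 1 that of P4ha3 (adjusted p = 0.0520 and 0.0563), and every sample other than adult replicate 3 that of Ppib (adjusted p = 0.0582 to 0.131). Ppib was also lost with median-ratio scaling and quantile normalization (adjusted p = 0.0847 and 0.101), and P4ha3 with quantile normalization (adjusted p = 0.0907).

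Of 9 genes for processing and crosslinking tested, 2 were called, both higher in adult, and the median log2 change was 0.16. Pcolce and Pcolce2, enhancers of the proteinase that trims fibrillar procollagens, had 130.3, 116 and 66.7 FPKM and 88.4, 73.3 and 40.4 FPKM in adult. At E16.5 they had 26.4, 10.6 and 19.9 FPKM and 20.5, 14.3 and 16.8 FPKM. Their log2 changes were 2.43 and 1.85 (limma adjusted p = 0.0212 and 0.0327). Pcolce was not called without E16.5 replicates 2 or 3 or adult replicate 1 (adjusted p = 0.0585, 0.0623 and 0.0591), nor Pcolce2 when any sample other than adult replicate 3 was left out (adjusted p = 0.0547 to 0.102). Both also missed the threshold with equal sums (adjusted p = 0.0502 and 0.121).

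Of 5 small proteoglycans of collagen fibrils tested, 1 was called higher in adult and 2 at E16.5, and the median log2 change was -2.05. Prelp, which is known to bind both collagen and perlecan, had 138, 175 and 116 FPKM in adult and 22.8, 23.4 and 27.5 FPKM at E16.5. Its log2 change was 2.48 (SE 0.30, limma adjusted p = 0.00587), and the call held in all 18 alternatives. Ogn (osteoglycin) had 3.60, 25.2 and 0 FPKM in adult and 100.3, 84.96 and 106 FPKM at E16.5 (log2 change -4.30, adjusted p = 0.0429). Bgn (biglycan) had 13.8, 11.9 and 0.448 FPKM in adult and 67.3, 87.9 and 91.4 FPKM at E16.5 (log2 change -3.66, adjusted p = 0.0398). Both calls were lost whichever E16.5 replicate was left out (adjusted p = 0.15001 to 0.160 for Ogn and 0.135 to 0.1501 for Bgn) and without adult replicate 1 (adjusted p = 0.101 and 0.0549). With median-ratio scaling Ogn and Bgn also missed the threshold (adjusted p = 0.0561 and 0.0576). The other 2 were not called: Dcn (decorin) had 7.86, 7.51 and 0 FPKM in adult and 24.6, 12.8 and 14.3 FPKM at E16.5 (log2 change -2.05, adjusted p = 0.178), and Fmod (fibromodulin) had 71.9, 91.3 and 62.1 FPKM in adult and 41.3, 42.5 and 59.6 FPKM at E16.5 (log2 change 0.64, adjusted p = 0.208).

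Among 7 matrix metalloproteinases and inhibitors tested, 2 were called, both higher in adult. Timp3, an inhibitor that stays bound to the matrix, had 351, 281 and 255 FPKM in adult and 77.1, 85.4 and 63.3 FPKM at E16.5. Its log2 change was 1.96 (SE 0.26, limma adjusted p = 0.00795), and the call held in all 18 alternatives. Mmp15, a membrane-bound metalloproteinase, had 58.0, 59.8 and 88.7 FPKM in adult and 26.7, 28.0 and 18.5 FPKM at E16.5 (log2 change 1.45, adjusted p = 0.0422). The call of Mmp15 was lost whichever E16.5 replicate was left out (adjusted p = 0.0885 to 0.103) and without adult replicate 1 (adjusted p = 0.0670). It also missed the threshold with equal sums (adjusted p = 0.214) and with equal sums without Mir6236 (adjusted p = 0.0566). Of the other proteinases, Mmp3, Mmp7, Mmp8, Mmp9, Mmp10, Mmp12, Mmp13, Mmp17, Mmp23 and Mmp25 were listed at 0 in all 6 samples, as was the inhibitor Timp4.

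**Figure D4:**
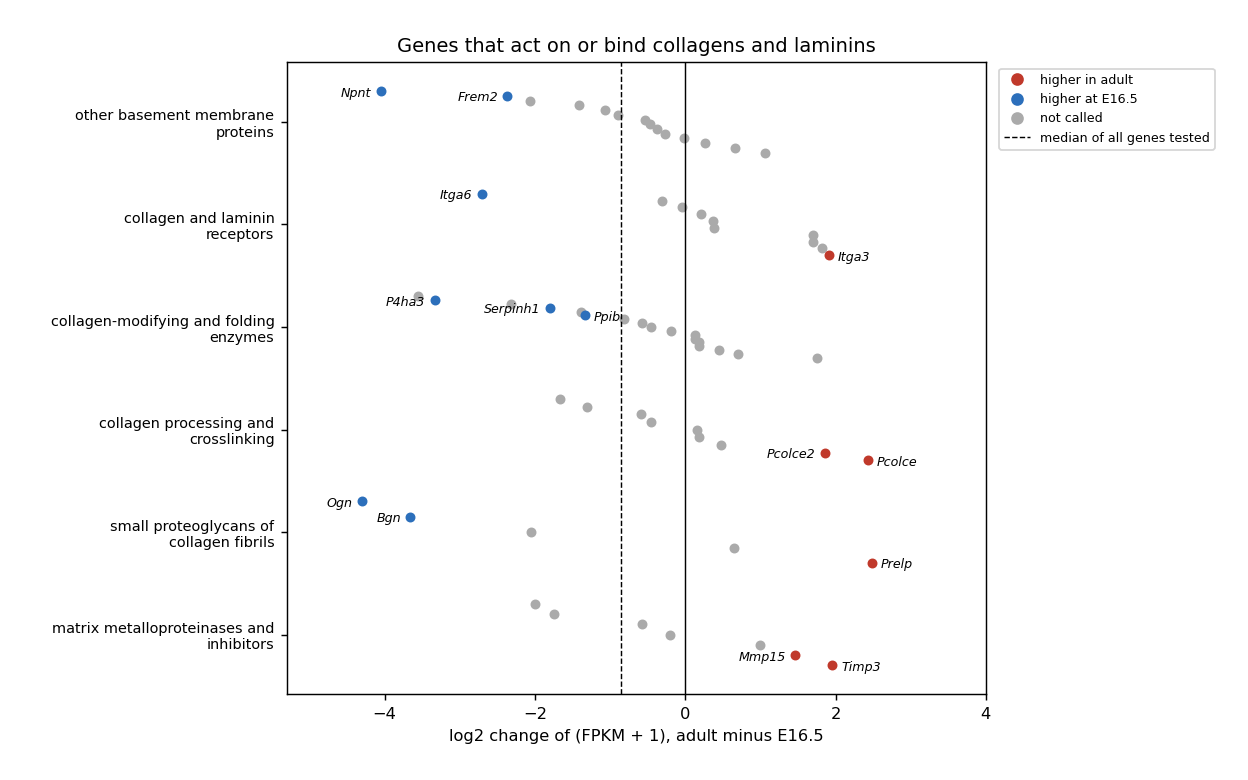
Log2 change of FPKM + 1, adult minus E16.5, for the tested genes of 6 lists around collagens and laminins, with a point for each gene, spread vertically in order of change, and the median of all genes tested as a dashed line. Red marks genes called higher in adult and blue those called higher at E16.5, while genes that were not called are gray.

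Marker lists of other cells give the setting of these values. Of 3 macrophage genes tested, 0 were called (0 at an unadjusted p under 0.05), and Aif1, Cd68, Itgam, Tyrobp and Fcer1g were listed at 0 in all samples. Of 4 red blood cell genes tested, 2 were called, both higher at E16.5, and the hemoglobin genes were at 0 in every adult sample, so that their direction was built in by the filter. Of 6 neuron and neural progenitor genes tested, Map2 was called higher at E16.5 (limma adjusted p = 0.0405, lost at 0.0531 to 0.170 when any sample other than adult replicate 2 was left out), and Stmn2 was above 0 in E16.5 replicate 1 alone (25.3 FPKM). Map2 was also lost with median-ratio scaling and quantile normalization (adjusted p = 0.0559 and 0.0758). Of 11 genes of motile cilia tested, 7 were called, all higher at E16.5. Among them was Foxj1, whose promoter drove the Cre, with 37.9, 45.8 and 62.4 FPKM in adult and 208, 198 and 154 FPKM at E16.5 (adjusted p = 0.0127, and 0.0510 without E16.5 replicate 2). Of the 13 markers of ChP epithelium, 5 were called higher in adult and 3 at E16.5, and 1 of the 5 is Ttr, whose call rests on its listed zeros at E16.5.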

How the data were processed

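TRAP-seq of ChP was analysed in 3 adult and 3 E16.5 samples, grouped by their labels. By the methods, each sample was pooled from 3 mice or 3 litters, and the series description has 3 mice at each age. Single-end reads were aligned by the authors to mm10 with STAR (2.4.0 in the submitters' processing notes), and the deposited FPKM per gene came from Cuffquant, a module of Cufflinks. Its gene annotation is not given in the sources used here. The read counts of the authors were not analysed here.

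No further scaling was applied to the deposited FPKM. Genes whose mean was above 1 FPKM over the 6 samples (11601 of 24354) were tested on log2(FPKM + 1), a pseudocount of 1, by limma 3.58.1 (R 4.3.3), using age as the only term and an intensity trend. Benjamini-Hochberg adjustment was over all genes tested, at a threshold of 0.05. The test was tried on simulated data. The members, their classes and the gene lists were chosen with earlier results of these data known, and no test was made over a list. Values are given for each called member, for type IV collagens, laminins, multiplexins and fibrillar collagens with a mean above 1 FPKM, for the 2 most abundant members of other classes, and for up to 3 called genes of each partner list in each direction. Some other genes were chosen after their values were seen (Ttr, Clic6, Kdr, Egfl7, Tie1, Cldn5, Sox9, Matn4, Frem1, Fras1, P3h2, Dcn, Fmod, Foxj1, Stmn2, Esam, Pecam1, Lama2, Col16a1, Col26a1 and the members that are named as not tested). Not every member that was not tested is reported here by name. Depth is not given with FPKM and was estimated from the spacing of low FPKM values, where neighbouring values differ by a read, over 2523 coding genes that have only 1 transcript in GENCODE vM21. A read in a kilobase was worth 0.114 to 0.325 FPKM in adult and 0.0639 to 0.0805 FPKM at E16.5. Gene positions are from GENCODE and promoter windows from RefSeq. Up to 18 alternatives per gene were run: other pseudocounts, filters, scalings and limma settings, a replicate block, a stricter threshold and each sample left out.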

Additional observations from a re-analysis of the deposited data

How the results depend on the processing

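Of 860 fits of the 31 tested members and 18 other named genes under the alternatives, 643 kept the direction and the side of the threshold, 168 lost a call, 18 gained a call and 31 changed sign. The changes of sign were all in 12 members that were not called, and the cause was not tested. These were log2 changes of 0.41 for Col4a3, 0.75 for Col4a5, 0.075 for Col1a2, 0.70 for Col5a2, 0.30 for Col14a1 and 0.32 for Col8a2 with quantile normalization, of 0.25 for Col4a5 and 0.23 for Col8a2 with median-ratio scaling, and of -0.63 for Col4a4, -0.26 for Lama5, -0.20 for Lamb1, -0.095 for Lamb2 and -0.16 for Col6a2 with equal sums (-0.0063 for Col4a4 without Mir6236). With array weights they were -0.016 for Col20a1 and 0.15 for Col8a2, and with a pseudocount of 0.01 the value was -0.67 for Col20a1. With each sample left out, values of both signs were found in the ranges -0.60 to 0.027 (Col4a3), -0.11 to 0.36 (Col4a4), -0.44 to 0.19 (Col4a5), -1.44 to 0.21 (Col5a2), -0.71 to 1.42 (Col20a1), -0.26 to 0.84 (Col6a2) and -0.35 to 0.36 (Col8a2).

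The number of genes called moved from 1270 to 722 among genes above 0 in every sample, 3213 with equal sums and 188 at an adjusted p of 0.01, and to between 439 and 1925 with a sample left out. The calls in favour of adult and of E16.5 were 246 and 1024 as deposited, 348 and 660 with median-ratio scaling, 114 and 3099 with equal sums, 569 and 504 with quantile normalization, and 271 and 451 among genes above 0 in every sample. The 7 members called became 4 with array weights, median-ratio scaling or quantile normalization, 3 among genes above 0 in every sample, 15 with equal sums, 1 at an adjusted p of 0.01, and 2 to 10 with a sample left out (3, 3 and 2 without E16.5 replicates 1, 2 and 3, and 4 without adult replicate 1). The 2 basement membrane members became 1 with array weights, median-ratio scaling, quantile normalization or a pseudocount of 0.01, 4 with equal sums, 0 at an adjusted p of 0.01 and 0 to 2 with a sample left out. The 1 fibrillar member became 0 with array weights, median-ratio scaling, quantile normalization, genes above 0 in every sample or an adjusted p of 0.01, 2 with a pseudocount of 0.1 or 0.01, 3 with equal sums and 0 to 3 with a sample left out. The difference of 1.17 between the basement membrane and fibrillar medians became 0.42 among genes above 0 in every sample, 2.97 and 4.63 with pseudocounts of 0.1 and 0.01, 0.54 with quantile normalization and 1.67 with equal sums without Mir6236, and it was 1.004 to 1.35 with a sample left out.

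The deviations of samples with the same replicate number correlated at 0.000895, 0.0439 and 0.0150, and those with different numbers at -0.0292 to 0.0135. All of these are small, but with 3 samples at each age they cannot settle whether the numbers pair the samples. With a replicate block, 564 genes, 3 members, 1 basement membrane member and 0 fibrillar members were called. Adult replicate 3 was the shallowest library, where a single read in a kilobase was worth 0.325 FPKM. Of the 31 tested members, 16 were listed at 0 in at least 1 adult sample. The part of depth in these zeros was not tested.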
